A study of Mus musculus with 6 samples.

Results

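The 10 genes described here were followed across liver RNA of mice: Glul, Oat, Slc1a2, Rgn, Lect2 and Cyp2e1, which mark hepatocytes near the central vein, and Axin2, Lgr5, Tbx3 and Rnf43, which are readouts of Wnt/beta-catenin signalling. They were taken by gene symbol from the deposited count table, in which all 10 of the 10 symbols were found among 22183, and all 10 passed the filter on low counts that left 14681 genes. The 6 liver samples were all of genotype BucheKI/KI-Hep, all had the treatment label DDC, and fell by their titles (S2W-PBS, S2W-DOX) into 3 PBS and 3 DOX samples. The series describes Buche (butyrylcholinesterase, gene symbol Bche) as overexpressed in hepatocytes. The genotype is thus shared by both groups, and so is DDC, in liver work the usual short name of a diet compound that damages bile ducts. DOX commonly stands for doxycycline, which turns on engineered genes, but the labels do not spell out DOX, DDC or S2W. Nothing in the labels states strain, sex, age, dose, duration, the promoter behind the knock-in or whether each sample is a separate mouse. The p-values therefore describe sample-to-sample spread that may be technical. An action of the DOX agent itself and one of raised butyrylcholinesterase cannot be told apart in this design.

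The liver lobule runs from the portal vein, where blood enters, to the central vein, where it leaves, and hepatocytes express different genes along that path. Endothelial cells of the central vein release Wnt ligands and R-spondin, and in nearby hepatocytes these keep beta-catenin from being degraded, so that it can act with TCF/LEF factors on DNA. The innermost hepatocytes take up glutamate and turn ammonia into glutamine. Axin2 and Rnf43 are induced by the pathway and restrain it in turn, as negative feedback.

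The libraries held 40592030 to 41921404 counts in PBS and 32476725 to 40298256 counts in DOX livers. Normalised counts are given as CPM, counts scaled to a common library size with TMM factors, and a fold change is DOX over PBS. Bche stood at 177, 177 and 206 CPM in PBS 1 to 3 and at 1938, 1867 and 1763 CPM in DOX 1 to 3, so the gene described as overexpressed was high in every DOX library (log2 fold change 3.31, adjusted p = 1.65e-07 by edgeR).

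All 10 genes had lower mean counts in DOX than in PBS livers. Of the 10, 7 fell in edgeR's quasi-likelihood test at an adjusted p under 0.05 (Lgr5, Slc1a2, Rgn, Tbx3, Lect2, Rnf43 and Axin2), 0 rose, and Glul, Oat and Cyp2e1 did not pass. Over all genes tested, 27.5% were called, 14% lower and 13.5% higher. For 6 of the 10 every DOX library lay below every PBS library, against 22.3% of all genes. Lgr5, which is in both counts, passed the filter only through its PBS level. The median log2 fold change of the 10 was -1.04, beside -0.00647 over all genes. The 10 genes were chosen with earlier results of these data known, so these comparisons with all genes are a description. When libraries were scaled by their totals alone, which moved the median of all genes to -0.163, 9 of the 10 were lower and Glul did not pass. The number lower was 4 without DOX 1, and 5 without PBS 1, PBS 3 or DOX 3. In bulk liver RNA, fewer cells of a zone and less RNA per cell cannot be told apart.

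**Figure D1:**
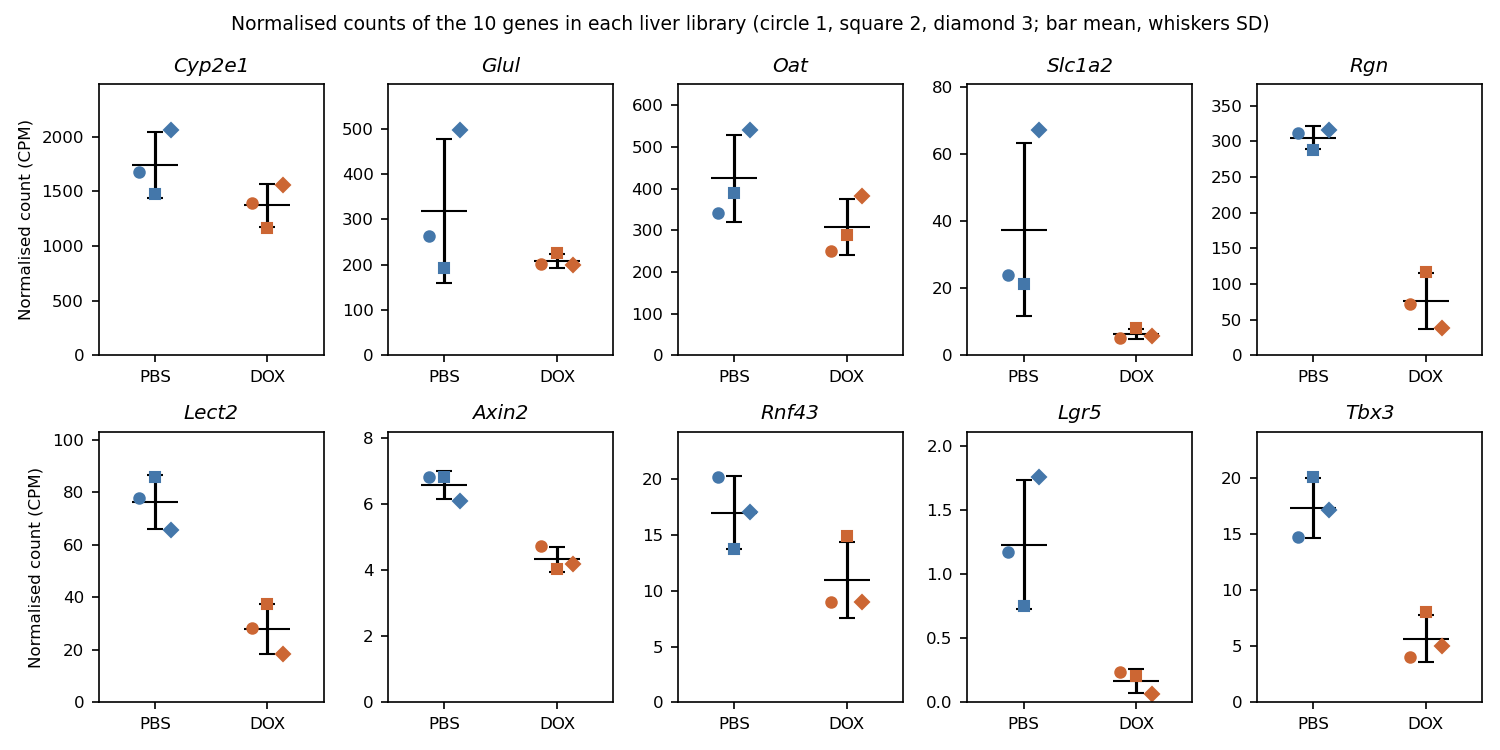
Normalised counts (CPM, linear axes from 0) of the 10 genes in the PBS and DOX libraries, with one point per library, a bar for the mean and whiskers for the SD over 3 libraries. The groups are apart for Slc1a2, Rgn, Lect2, Axin2, Lgr5 and Tbx3, and PBS 3 stands high for Glul (498 CPM) and Slc1a2 (67.2 CPM).

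Promoter windows show where the letters recognised by TCF/LEF factors, the DNA-binding partners of beta-catenin, occur near these genes. RefSeq windows of GRCm38.p6, from 250 bases before to 50 after a transcript start, were available for 7 of the 10 genes (Glul, Slc1a2, Oat, Cyp2e1, Rnf43, Axin2 and Lect2). The letters CTTTGA or CTTTGT were searched on both strands. They occurred in 3 of the 8 windows of these 7 genes (Slc1a2, Cyp2e1 and Lect2), and in 31.2% of all 32851 windows of that table. The 3 windows with a match are printed 5′ to 3′ on the gene's strand, with the matched letters in capitals. Slc1a2 lies at chr2:102706188-102706487 on the plus strand, a start inside the annotated gene, with matches 206 bases (minus strand) and 77 bases (plus strand) before the start. Cyp2e1 lies at chr7:140763569-140763868 on the plus strand, with a match 135 bases before the start. Lect2 lies at chr13:56548489-56548788 on the minus strand, with a match 31 bases before the start on the opposite strand.
Slc1a2: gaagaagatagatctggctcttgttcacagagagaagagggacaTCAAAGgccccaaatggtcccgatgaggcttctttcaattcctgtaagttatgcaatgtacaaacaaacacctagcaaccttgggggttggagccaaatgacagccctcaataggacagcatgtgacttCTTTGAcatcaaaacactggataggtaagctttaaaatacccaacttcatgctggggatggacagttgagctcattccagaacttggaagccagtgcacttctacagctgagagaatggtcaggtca
Cyp2e1: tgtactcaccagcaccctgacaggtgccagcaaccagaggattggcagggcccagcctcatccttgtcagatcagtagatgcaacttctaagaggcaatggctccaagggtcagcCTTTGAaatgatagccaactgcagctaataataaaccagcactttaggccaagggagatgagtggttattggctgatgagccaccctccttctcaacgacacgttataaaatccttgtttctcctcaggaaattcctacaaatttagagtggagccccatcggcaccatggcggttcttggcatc
Lect2: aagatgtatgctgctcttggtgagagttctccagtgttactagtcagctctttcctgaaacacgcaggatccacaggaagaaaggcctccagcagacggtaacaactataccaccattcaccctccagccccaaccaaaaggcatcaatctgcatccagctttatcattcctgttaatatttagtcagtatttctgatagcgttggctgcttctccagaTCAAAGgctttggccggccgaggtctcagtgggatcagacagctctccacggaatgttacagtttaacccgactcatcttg
The Lect2 match extends to the longer form CTTTGATC, which 0.938% of all windows hold and which no other window of the 7 genes holds. Of the 3 genes shown, Lect2 and Slc1a2 fell in DOX livers and Cyp2e1 did not pass. A match of letters is a description of the window and was not tested as a binding site.

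Levels of the genes relative to each other were read from the deposited FPKM values, which divide each count by gene length and library total. In PBS livers Cyp2e1 led with 1039 ± 147 FPKM, followed by Oat at 207 ± 44.4 FPKM, Rgn at 181 ± 6.64 FPKM, Glul at 119 ± 55.8 FPKM and Lect2 at 37.3 ± 6.04 FPKM (SD, n = 3). The signalling genes were far less abundant, from 3.95 ± 0.752 FPKM for Rnf43, 3.54 ± 0.587 FPKM for Tbx3 and 1.30 ± 0.121 FPKM for Axin2 down to 0.273 ± 0.104 FPKM for Lgr5, and the transporter Slc1a2 stood among them at 2.88 ± 1.89 FPKM (SD, n = 3). The PBS libraries of Oat, Rgn and Glul overlapped with each other, and so did those of Rnf43, Tbx3 and Slc1a2. The order within each of these sets was therefore not separated. In DOX livers Glul (70.6 ± 4.11 FPKM) stood above Rgn (40.2 ± 20.4 FPKM) without overlap, and Axin2 (0.767 ± 0.0635 FPKM) above Slc1a2 (0.441 ± 0.109 FPKM; SD, n = 3). Tbx3 and Axin2 were the single neighbouring pair in DOX livers whose libraries overlapped. Cyp2e1 was the most abundant and Lgr5 the least abundant of the 10 genes in every library.

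**Figure D2:**
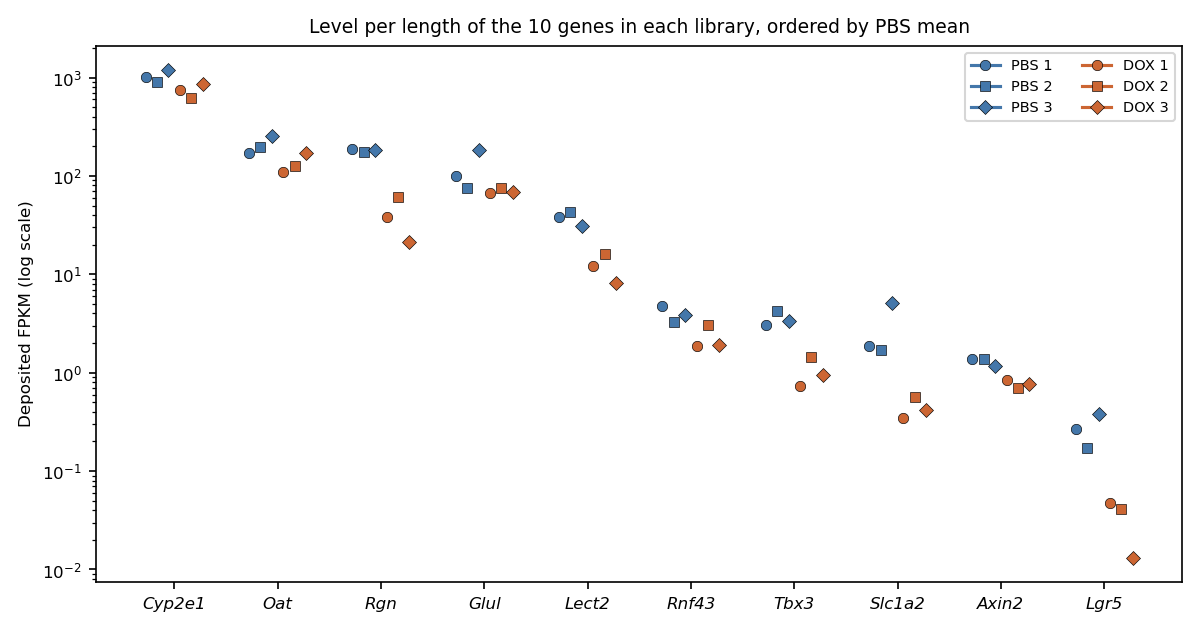
Deposited FPKM (logarithmic axis) of the 10 genes in each of the 6 libraries, ordered by the PBS mean. Values run from 1195 FPKM for Cyp2e1 in PBS 3 to 0.0131 FPKM for Lgr5 in DOX 3, and Rgn falls below Glul in the DOX libraries.

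Of the 3 genes of glutamine, glutamate and ornithine metabolism, Slc1a2 fell, and Glul and Oat did not pass the test. Glul, glutamine synthetase, is the enzyme that fixes ammonia in the hepatocytes next to the central vein (GRCm38.p6 chr1:153899929-153909723). It was measured at 263, 193 and 498 CPM in PBS 1 to 3 and at 202, 225 and 198 CPM in DOX 1 to 3. The DOX libraries were close together and all above PBS 2, while PBS 3 was 2.18 times the mean of the other PBS libraries. The log2 fold change of Glul was -0.61 (SE 0.33, adjusted p = 0.216 by edgeR). It was -0.13 without PBS 3 (adjusted p = 0.588) and -0.87 without PBS 2 (adjusted p = 0.03), and over 14 alternatives by edgeR, DESeq2 and limma the adjusted p spanned 0.03 to 0.588.

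Slc1a2 encodes a sodium-driven glutamate carrier, which brings glutamate into the cells that express Glul (chr2:102658239-102790784). It stood at 23.9, 21.1 and 67.2 CPM in PBS 1 to 3 and at 5.03, 8.13 and 5.78 CPM in DOX 1 to 3. All DOX libraries lay below all PBS libraries, and PBS 3 again stood high, at 2.99 times the mean of PBS 1 and PBS 2. Slc1a2 fell 5.92-fold (log2 fold change -2.57, SE 0.58, adjusted p = 0.0312 by edgeR). Its log2 fold change was -1.83 without PBS 3, and its adjusted p by edgeR was 0.122 without DOX 1, 0.0848 without DOX 2, 0.103 without DOX 3 and 0.06 without the filter on low counts. Over the 14 alternatives the adjusted p of Slc1a2 ran from 0.000109 to 0.122.

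Oat, ornithine aminotransferase, makes glutamate from ornithine (chr7:132557475-132576398). It stood at 342, 389 and 542 CPM in PBS 1 to 3 and at 251, 289 and 382 CPM in DOX 1 to 3. The groups overlapped through DOX 3, and the log2 fold change of -0.47 (SE 0.19) did not pass the edgeR test (adjusted p = 0.0971). It was -0.65 without DOX 3 (adjusted p = 0.0419) and -0.61 with scaling by library totals (adjusted p = 0.0313, against a median of all genes of -0.163 under that scaling), in an edgeR, DESeq2 and limma range of 0.0313 to 0.348.

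Of the genes with other metabolic or secreted products, Rgn and Lect2 fell. Rgn, regucalcin, is a gluconolactonase of vitamin C synthesis (chrX:20549766-20562089). It stood at 312, 287 and 316 CPM in PBS 1 to 3, which was the tightest PBS group of the 10 genes with Axin2, and at 71.8, 117 and 38.6 CPM in DOX 1 to 3. The DOX libraries differed 3.04-fold among themselves, and all lay below PBS. Rgn fell 4.02-fold (log2 fold change -2.01, SE 0.39, adjusted p = 0.0155 by edgeR). Leaving out PBS 3 gave an adjusted p of 0.0581, leaving out DOX 1 gave 0.0715, and dropping the filter gave 0.0504 (edgeR). Over all 14 alternatives by edgeR, DESeq2 and limma it lay between 6.31e-05 and 0.0715.

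Lect2 encodes a protein that hepatocytes secrete into blood (chr13:56529734-56548559). It stood at 77.7, 85.9 and 65.6 CPM in PBS 1 to 3 and at 28.2, 37.5 and 18.4 CPM in DOX 1 to 3. The groups were apart, and Lect2 fell 2.72-fold (log2 fold change -1.44, SE 0.24, adjusted p = 0.00434 by edgeR). Its call held under all 14 alternatives. As for Rgn, DOX 2 was the highest and DOX 3 the lowest of the DOX libraries.

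Cyp2e1 encodes the cytochrome P450 that oxidises ethanol and paracetamol (chr7:140763819-140774990). It stood at 1679.9, 1474 and 2067 CPM in PBS 1 to 3 and at 1394, 1169 and 1557 CPM in DOX 1 to 3. The groups overlapped, and the log2 fold change of -0.34 (SE 0.16, adjusted p = 0.138 by edgeR) did not pass. With scaling by library totals it was -0.49 (adjusted p = 0.0324), against a median of all genes of -0.163, and the adjusted p spanned 0.0324 to 0.431 by edgeR, DESeq2 and limma.

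**Figure D3:**
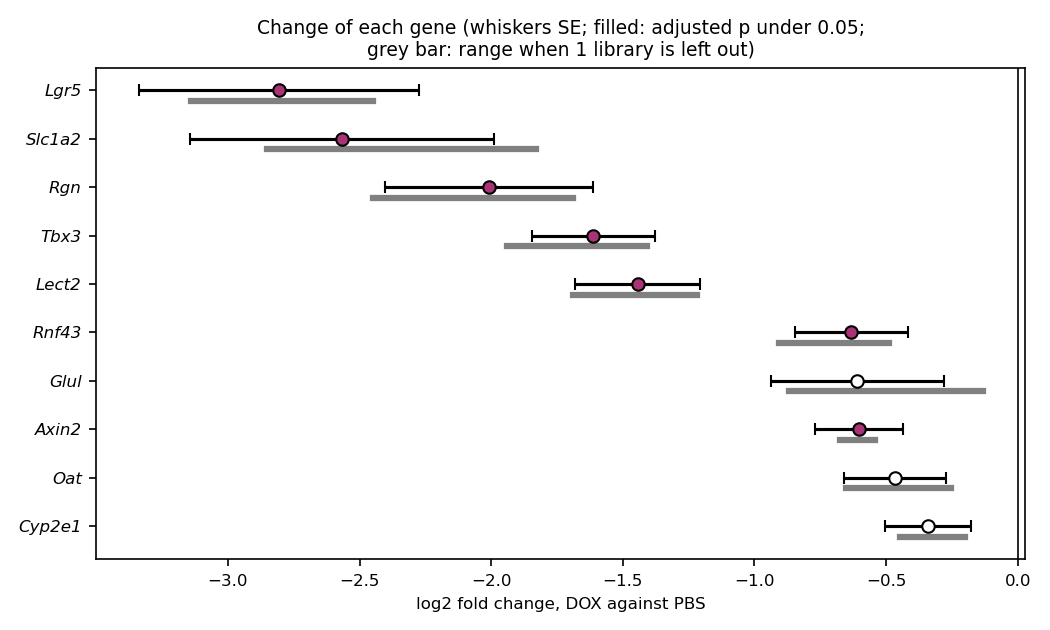
Log2 fold change of each of the 10 genes, DOX against PBS, with whiskers for the SE, filled points for an adjusted p under 0.05 by edgeR, and a grey bar for the range when 1 library is left out. Every bar lies below 0, from -3.14 for Lgr5 to -0.13 for Glul at the ends.

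The Wnt pathway genes among the 10 all fell. Axin2, a scaffold of the complex that degrades beta-catenin and a widely used readout of the pathway, lies at chr11:108917828-108950783. It stood at 6.82, 6.80 and 6.09 CPM in PBS 1 to 3 and at 4.74, 4.04 and 4.19 CPM in DOX 1 to 3. Both groups were tight and apart, with a 1.52-fold fall (log2 fold change -0.60, SE 0.17, adjusted p = 0.0209 by edgeR). Leaving out PBS 1 gave an adjusted p of 0.0655, leaving out PBS 2 gave 0.0711, and leaving out DOX 3 gave 0.0597 (edgeR). The 14 alternatives by edgeR, DESeq2 and limma spanned 0.0068 to 0.0711.

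Rnf43 encodes a ubiquitin ligase that removes Frizzled receptors from the cell surface (chr11:87663087-87735539). It stood at 20.2, 13.7 and 17.1 CPM in PBS 1 to 3 and at 8.997, 14.9 and 8.98 CPM in DOX 1 to 3. The groups overlapped, since DOX 2 lay above PBS 2. The fall of 1.55-fold passed narrowly (log2 fold change -0.63, SE 0.21, adjusted p = 0.0492 by edgeR). Leaving out PBS 1, PBS 3, DOX 1 or DOX 3 gave edgeR adjusted p-values of 0.159, 0.116, 0.166 and 0.151, and relative log expression scaling gave 0.0506. Unfiltered limma on log2(FPKM + 1) gave 0.0728, and the 14 alternatives spanned 0.00183 to 0.166.

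Lgr5 encodes a receptor for R-spondins and marks hepatocytes at the central vein (chr10:115450314-115587780). Its counts were 51, 33 and 75 in PBS 1 to 3 and 9, 7 and 2 in DOX 1 to 3, with exact 95% Poisson intervals of 4.12 to 17.1, 2.81 to 14.4 and 0.242 to 7.22 for the DOX counts, which cover counting error only. Every upper bound in the DOX libraries lay below every lower bound in the PBS libraries, the lowest of which was 22.7. The normalised counts were 1.17, 0.753 and 1.76 CPM in PBS 1 to 3 and 0.238, 0.206 and 0.0635 CPM in DOX 1 to 3. Lgr5 fell 7.0-fold (log2 fold change -2.81, SE 0.53, adjusted p = 0.00345 by edgeR), which is within the SE of the value for Slc1a2 (-2.57, SE 0.58), and its call held under all 14 alternatives. It reached the filter's 0.247 CPM in 3 PBS and 0 DOX libraries, so it was tested only because of its PBS level. On the log2(FPKM + 1) scale, which compresses low genes, its difference was -0.30.

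Tbx3, a T-box transcription factor that acts downstream of beta-catenin in liver, lies at chr5:119670534-119684724. It stood at 14.7, 20.1 and 17.1 CPM in PBS 1 to 3 and at 3.996, 8.02 and 4.98 CPM in DOX 1 to 3. The groups were apart, and Tbx3 fell 3.06-fold (log2 fold change -1.61, SE 0.23, adjusted p = 0.00127 by edgeR). Its call held under all 14 alternatives, as did those of Lect2 and Lgr5 and of no other gene among the 7.

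Counts relative to Glul in the same library need no scaling between libraries, and were compared as a description chosen after the values were seen. Slc1a2 gave 9.08, 10.9 and 13.5 counts per 100 Glul counts in PBS 1 to 3 and 2.5, 3.61 and 2.92 in DOX 1 to 3. PBS 3 was high for both Slc1a2 and Glul, and the groups were apart on this scale too. Lgr5 gave 0.446, 0.39 and 0.353 counts per 100 Glul counts in PBS 1 to 3 and 0.118, 0.0916 and 0.0321 in DOX 1 to 3. Rgn gave 119, 149 and 63.6 in PBS 1 to 3 and 35.7, 52.1 and 19.5 in DOX 1 to 3. Slc1a2, Lgr5 and Rgn were the 3 genes of 9 whose groups were apart relative to Glul. Of these, Lgr5 passed the filter on low counts only through its PBS level. On the same scale every DOX library lay below every PBS library for 2.04% of all genes and above for 20.5%, with the Glul count itself high in PBS 3. Axin2, at 2.45 ± 1.16 in PBS and 2.09 ± 0.281 in DOX livers, and Cyp2e1, at 606 ± 176 and 666 ± 136, overlapped (SD, n = 3). Lect2 and Tbx3 had lower means relative to Glul in DOX livers, 13.3 ± 3.72 against 29.1 ± 15.7 and 2.69 ± 0.801 against 6.48 ± 3.55, but overlapped with PBS 3 (SD, n = 3).

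**Figure D4:**
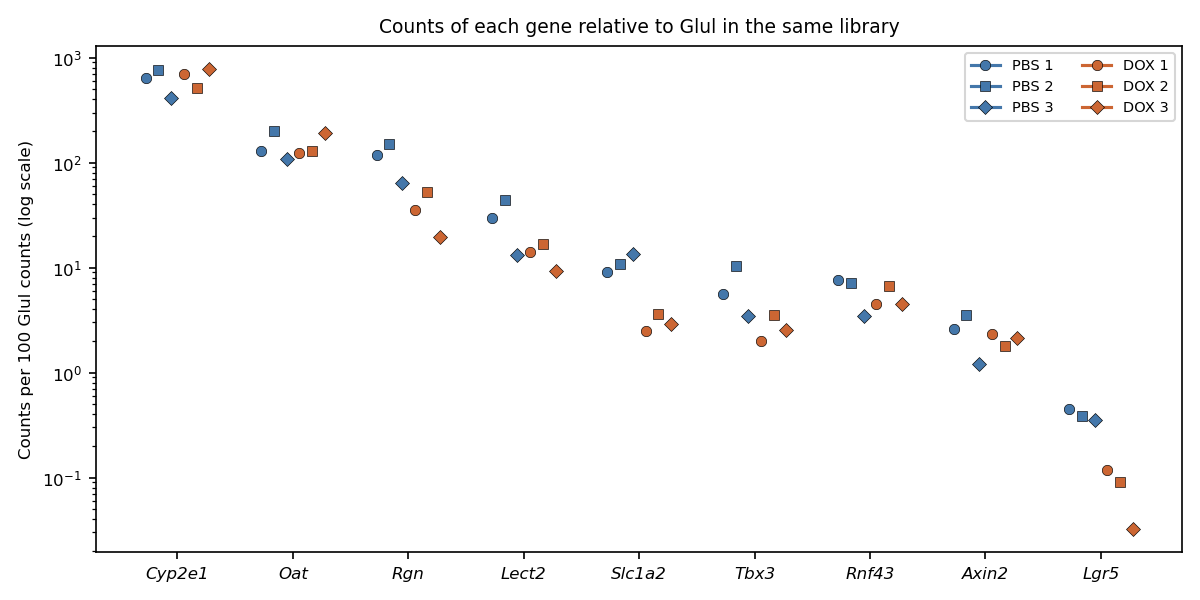
Counts of 9 genes per 100 Glul counts in the same library (logarithmic axis), for the 3 PBS and 3 DOX libraries. Slc1a2, Lgr5 and Rgn are lower in all DOX libraries, whereas Oat, Lect2, Axin2, Tbx3, Rnf43 and Cyp2e1 overlap between the groups.

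Libraries of a group did not vary alike across the 10 genes. PBS 3 was the highest PBS library for 6 of the 10 genes (Glul, Oat, Slc1a2, Rgn, Lgr5 and Cyp2e1), beside 34.7% of all genes, whereas Lect2 and Axin2 were lowest there. Among the DOX libraries, DOX 3 was the lowest for 5 of the 10 genes, beside 31.5% of all genes. DOX 2 was the highest for 6, and the share of all genes highest there was not computed. Rgn in DOX 3 was 0.408 times and Lgr5 0.286 times the mean of DOX 1 and DOX 2, while Oat was 1.41 times. Of 30 other genes known from pericentral hepatocytes, PBS 3 was the highest PBS library for 14, and of 28 periportal genes for 13.

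The other pericentral hepatocyte genes moved in both directions. Over all genes 27.5% were called, 14% lower and 13.5% higher. Of 30 pericentral genes measured, 13 fell, 6 rose and 11 did not pass the edgeR test (63.3% called), with a median log2 fold change of -0.35. Those of smallest p that fell were Aldh3a2, a fatty aldehyde dehydrogenase (416 ± 39.0 to 153 ± 16.5 CPM), Gulo, the last enzyme of vitamin C synthesis (212 ± 10.8 to 61.9 ± 19.1 CPM), and Slc22a3, an organic cation carrier (11.5 ± 1.56 to 2.41 ± 1.32 CPM; SD, n = 3). Their log2 fold changes were -1.44, -1.78 and -2.25. Gulo and Rgn act in the same pathway, and for both every DOX library lay below every PBS library. The same held for 14 of the 30 genes of this list and for 22.3% of all genes. The gene of smallest p in the list was Cyp2c54, a drug-metabolising cytochrome P450, which rose from 82.2 ± 9.41 to 305 ± 34.4 CPM (SD, n = 3; adjusted p = 1.54e-05 by edgeR). Its relatives Cyp2c37, Cyp2c50 and Cyp2c29, named after their values were seen, rose by 1.72, 1.01 and 1.07 on the log2 scale, and the labels do not say how reads shared by such close copies were counted. Leaving out DOX 1 left 7 genes that fell, and leaving out DOX 3 left 4 that rose.

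Periportal hepatocyte genes, which mark the opposite end of the lobule, had a median log2 fold change of 0.25. Beside 27.5% of all genes called (13.5% higher and 14% lower), 46.4% of this list were called. Of 28 measured, 11 rose, 2 fell and 15 did not pass the edgeR test. The 4 of smallest p were the urea cycle genes Asl (log2 fold change 1.15) and Arg1 (0.84), the glycine-cleaving enzyme Gldc (0.99) and the histidine-degrading enzyme Hal (0.83). The 2 that fell were the apolipoprotein gene Apoa4 (-1.06) and Hsd17b6, a steroid dehydrogenase (-1.96), of which Hsd17b6 had an adjusted p of 0.0606 by edgeR without DOX 1 (all alternatives, 2.07e-05 to 0.0606). Risers numbered 7 without PBS 2 and 7 with limma on log2(FPKM + 1). Genes called lower numbered 1 without DOX 1, 6 without DOX 2, 5 with scaling by library totals and 6 with that limma fit. The difference between this list and the pericentral one was not tested.

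**Figure D5:**
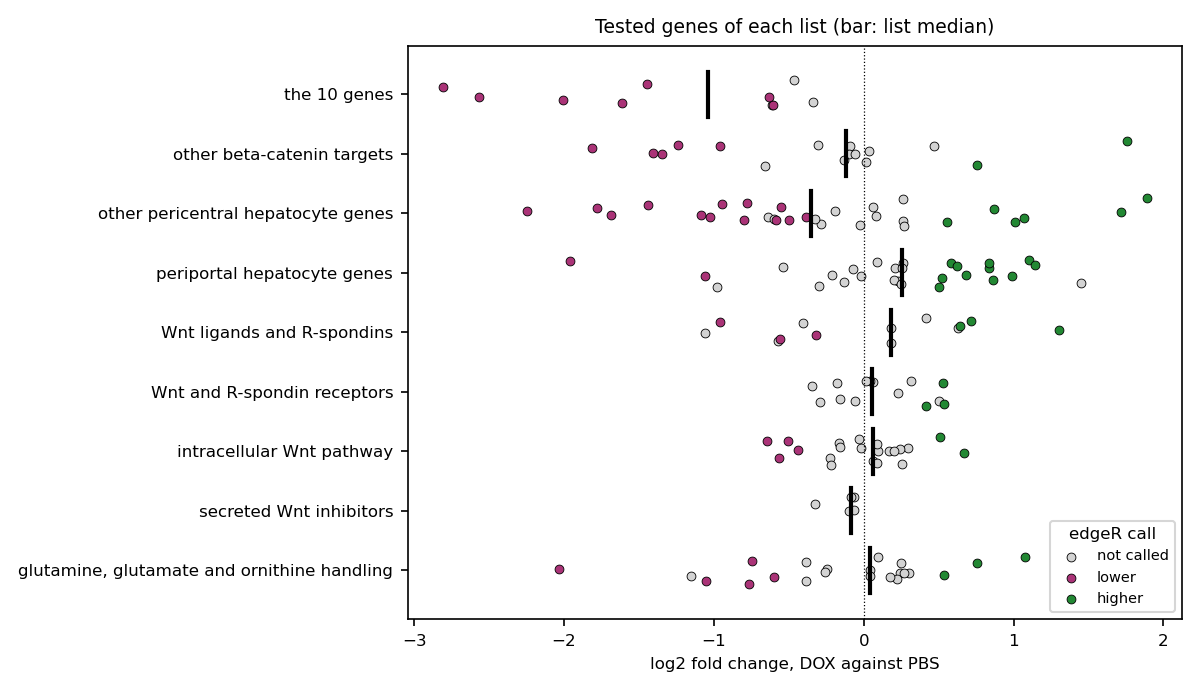
Log2 fold change of every tested gene in 9 lists, DOX against PBS, coloured by edgeR call, with a bar at each list's median. All 10 genes of the top row lie below 0, the other pericentral genes spread from -2.25 to 1.89, and the receptors stay between -0.34 and 0.53.

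Other genes used as readouts of beta-catenin signalling were divided. Of 18 listed, 17 were in the table and 16 were tested, with a median log2 fold change of -0.12. Among the 16, 5 fell, 2 rose and 9 did not pass the edgeR test (43.8% called, beside 27.5% of all genes). Nkd2, which antagonises Wnt signalling, fell from 5.54 ± 0.831 to 2.34 ± 0.239 CPM, and Sox9, a transcription factor also of bile duct cells, fell from 22.1 ± 2.10 to 11.4 ± 0.433 CPM (SD, n = 3; adjusted p = 0.00191 and 0.000475 by edgeR). The others that fell were Sp5, a Wnt-induced zinc finger factor (-1.81), and Birc5 (-1.41) and Ccnd1 (-1.35), which act in cell division. Sp5 reached 0.247 CPM in 3 PBS and 0 DOX libraries, so it too was tested only through its PBS level. Tnfrsf19, a surface receptor, rose by 0.75 and Apcdd1, a Wnt inhibitor at the cell membrane, rose by 1.75 on the log2 scale. Znrf3, the close relative of Rnf43, stood at a log2 fold change of 0.04, Notum, a secreted enzyme that inactivates Wnt, at -0.09, and Nkd1 at 0.47, none past the test (adjusted p = 0.888, 0.661 and 0.221 by edgeR); these 3 were named after their values were seen. The sign for Znrf3 turned to -0.12 with scaling by library totals. Leaving out PBS 1 or DOX 1 left 3 genes that fell, and leaving out PBS 2 left 2. Sp5 had an adjusted p of 0.0636, 0.0772, 0.0753 and 0.0706 by edgeR without PBS 1, PBS 2, DOX 1 and DOX 3 (range 0.00565 to 0.0772). Apcdd1 had 0.0773 by limma on log2(FPKM + 1) with no filter, and Birc5 had 0.0675 by edgeR without PBS 2 (range 0.000424 to 0.0877), and Ccnd1 had 0.0577, 0.0592, 0.0775 and 0.0914 without PBS 1, PBS 2, PBS 3 and DOX 1 (range 2.15e-05 to 0.0914).

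The 6 dividing-cell markers, among them Mki67 and Top2a, all fell, beside 14% of all genes. Summed levels of the 6 were 35.1 to 49.4 CPM in PBS and 10.3 to 18.9 CPM in DOX libraries, with 0 at 0 counts. The part of dividing cells in the falls of Birc5 and Ccnd1, and of the 10 genes, was not tested. Of 7 bile duct markers, 2 fell (Sox9 and Cftr) and 0 rose. That is 28.6% called, near the 27.5% of all genes. The summed level of the 7 was 775 to 938 CPM across PBS and 541 to 777 CPM across DOX libraries. Spp1 alone averaged 717 CPM in PBS and 533 CPM in DOX libraries and was not called.

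Among secreted activators, Rspo3 rose and Wnt5a fell. Of 24 Wnt ligands, R-spondins and genes of their export, 19 were in the table and 13 were tested. Among the 13, 3 rose, 3 fell and 7 did not pass the edgeR test (46.2% called, beside 27.5% of all genes). Rspo3, the R-spondin of central vein endothelium, rose from 6.45 ± 1.66 CPM in the PBS group to 10.6 ± 1.58 CPM (SD, n = 3), with a log2 fold change of 0.72 and an edgeR adjusted p of 0.0185. Leaving out PBS 2, PBS 3 or DOX 1 gave edgeR adjusted p-values of 0.0735, 0.0751 and 0.0814, and scaling by library totals gave 0.0538, spanning 0.00174 to 0.121 over the alternatives. Wnt5a, a ligand that acts mostly without beta-catenin, fell from 8.24 ± 1.90 to 4.25 ± 0.089 CPM, and Wnt5b from 13.7 ± 0.701 to 9.32 ± 1.33 CPM (SD, n = 3; Wnt5b adjusted p = 0.0509 by edgeR without PBS 2, all alternatives 0.00342 to 0.0509). Porcn, which attaches the lipid that Wnt ligands need, rose from 1.99 ± 0.442 to 4.91 ± 0.276 CPM (SD, n = 3). Wnt4 also rose (0.64) and Wls, the Wnt export carrier, also fell (-0.32), both with an edgeR adjusted p above 0.05 without PBS 2 (0.0992 and 0.0881), PBS 3 (0.153 and 0.0603), DOX 1 (0.171 and 0.0517) or DOX 3 (0.141 and 0.114). Wls also lost its call without PBS 1 (0.147) or DOX 2 (0.0711), and the ranges of adjusted p were 0.00307 to 0.299 for Wnt4 and 0.00714 to 0.147 for Wls. Wnt2 and Wnt9b, the main ligands of liver endothelium, were low and did not pass, at log2 fold changes of 0.63 and 0.41 (adjusted p = 0.288 and 0.453 by edgeR; named after their values were seen). Leaving out PBS 2, PBS 3 or DOX 1 left 1 riser among these genes, and leaving out PBS 2 left 1 that fell. Of 10 markers of central vein and sinusoidal endothelium, Pecam1 and Lyve1 rose and 0 fell (20% called, beside 27.5% of all genes). Summed levels of the 10 were 180 to 204 CPM in PBS and 198 to 260 CPM in DOX libraries, with 0 at 0 counts. The part of these cells in the Rspo3 result was not tested.

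Receptors were called no more often than genes at large. Of 17 listed, 14 were tested (21.4% called, beside 27.5% of all genes), 3 rose and 0 fell by edgeR: Ryk (0.42), Fzd8 (0.53) and Fzd6 (0.53 on the log2 scale), which bind Wnt ligands. No receptor was called higher without PBS 2, PBS 3 or DOX 3 or with any of the 3 limma fits. With scaling by library totals 0 rose and 2 fell. Of the 14, 6 had an unadjusted p under 0.05 by edgeR, and DESeq2 called 3 higher and 0 lower. Without DOX 1 the adjusted p was 0.0651 for Ryk and 0.0909 for Fzd6, and without DOX 2 it was 0.0511 for Fzd6 (edgeR). Without PBS 2, PBS 3 and DOX 3 it was 0.0824, 0.0729 and 0.0943 for Ryk, 0.0862, 0.0954 and 0.0709 for Fzd8, and 0.0624, 0.139 and 0.099 for Fzd6 (edgeR). The alternatives spanned 0.00254 to 0.26, 0.00959 to 0.158 and 0.0197 to 0.25 for these 3 genes.

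Inside the cell, 4 of 21 genes fell (Btrc, Pygo2, Dvl3 and Bcl9l) and 2 rose (Axin1 and Tcf7l1). That is 28.6% called, near the 27.5% of all genes. Btrc, which marks beta-catenin for degradation, and Pygo2, its nuclear partner, fell by 0.65 and fell by 0.57 on the log2 scale. Axin1, the constitutive relative of Axin2, rose by 0.51, and Tcf7l1, a repressive TCF factor, rose by 0.67. Ctnnb1, beta-catenin itself, was named after its value was seen and did not pass (-0.22, adjusted p = 0.143 by edgeR). With scaling by library totals Ctnnb1 was lower by the test (-0.38, adjusted p = 0.018), the alternatives spanning 0.0178 to 0.298. Dvl3 had an adjusted p of 0.069 without PBS 3 and 0.0577 without DOX 1 (range 0.0036 to 0.069), and Bcl9l one of 0.0823, 0.0836, 0.147, 0.128 and 0.137 by edgeR without PBS 1, PBS 2, PBS 3, DOX 1 and DOX 3 (range 0.000831 to 0.147). Axin1 and Tcf7l1 were not called by the 3 limma fits. Leaving out PBS 3 or DOX 1 left 2 intracellular genes that fell. Of 11 secreted inhibitors, 5 were tested and 0 were called by edgeR, DESeq2 or limma, with 0 at an unadjusted p under 0.05 by edgeR; Frzb and Dkk3 had the smallest p (adjusted p = 0.159 and 0.705).

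Around the substrates of Glul, Oat and Slc1a2, 22 of 24 listed genes were tested, of which 3 rose, 5 fell and 14 did not pass the edgeR test (36.4% called, beside 27.5% of all genes). Prodh, proline dehydrogenase, rose from 147 ± 29.7 to 309 ± 36.8 CPM (SD, n = 3), and the alanine aminotransferase gene Gpt rose by 0.75 on the log2 scale. Slc1a4, a neutral amino acid carrier, and Aldh18a1, the enzyme that starts proline synthesis, fell by 0.77 and fell by 0.74 on the log2 scale. Slc1a1, a glutamate carrier of the same family as Slc1a2, was low, with 0.646 ± 0.278 CPM for the PBS group and 0.155 ± 0.174 CPM for the DOX group (SD, n = 3). Its log2 fold change was -2.04 with an edgeR adjusted p of 0.0447, and it was named after its values were seen. It reached 0.247 CPM in 3 PBS and 1 DOX library, so it passed the filter only through the PBS group. Slc1a1 had an edgeR adjusted p of 0.164, 0.0695, 0.0688, 0.151 and 0.137 when PBS 1, PBS 2, PBS 3, DOX 1 and DOX 3 were left out, and a log2 fold change of -3.41 without DOX 2 (adjusted p over the alternatives 0.00556 to 0.164). Slc38a2 also rose, with an adjusted p of 0.0696 without PBS 2 (range 0.00142 to 0.151). Gpt2 and Slc25a22 also fell, the latter with 0.0539 without PBS 1 and 0.0678 without PBS 3 (range 8.37e-06 to 0.0837; edgeR). Leaving out PBS 1 or PBS 3 left 3 genes of the list that fell, and leaving out DOX 2 gave 8.

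All 8 hepatocyte markers were measured, with summed levels of 89800 to 96200 CPM in PBS and 90100 to 116000 CPM in DOX libraries. Of these, 3 rose (Hnf4a, Ttc36 and Tdo2), or 37.5% called. Over all genes 27.5% were called, 13.5% higher and 14% lower. Of 7 stellate cell and fibroblast markers 4 fell, or 57.1% called (1310 to 1580 CPM summed in PBS and 797 to 1090 CPM in DOX libraries). Of 7 Kupffer cell and macrophage markers 2 rose (1150 to 1270 CPM and 1220 to 1260 CPM). That is 28.6% called, near the share of all genes. Lyz2 alone averaged 705 CPM in PBS and 646 CPM in DOX libraries and was not called. Of 8 lymphocyte markers 5 were tested and 1 fell (Nkg7), or 20% called (2.93 to 5.16 CPM and 0.825 to 2.41 CPM). Nkg7 reached 0.247 CPM in 3 PBS and 2 DOX libraries, so it passed the filter only with its PBS libraries. Of 5 neutrophil markers 4 were tested, 1 rose and 1 fell, or 50% called (28 to 39.7 CPM and 31.4 to 77.7 CPM). No marker in these lists was at 0 counts in all libraries, and the part of these cell types in the changes of the 10 genes was not tested.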

How the data were processed

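Liver RNA of 6 mouse samples was sequenced from SMARTER mRNA-seq libraries, per the labels' protocols. The authors deposited counts per gene symbol for the 6 libraries, whole numbers with no normalization, and a table of FPKM values. Count divided by FPKM gave the same gene length in all libraries to a relative difference of 1.84e-06, so the deposited FPKM adds no measurement. The submitters' processing notes list GRCm38, mm10 and hg38 with no role. Which aligner, counting program, strand setting and annotation were used is not given in the sources used here, and counts of close copies, overlapping genes and antisense pairs are uncertain.

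Columns were matched to samples by title, with 0 columns of other samples and 0 entries without a gene name. Counts were tested with edgeR 4.0.16 in R 4.3.3 (quasi-likelihood test, robust, group as the only term, TMM scaling, filterByExpr with a minimum count of 10 and total of 15), and adjusted by Benjamini-Hochberg over all 14681 genes. CPM and log2 fold changes come from this fit, and the SE is the log2 fold change divided by the root of F. Alternatives were DESeq2 1.42.0, limma 3.58.1 on log2(FPKM + 1) and log2(FPKM + 0.1), other scalings, no filter, and leaving out each library. No library was a copy of another (chi-square over its degrees of freedom at least 30.0 within a group). In simulated counts for this comparison (14681 genes), edgeR called 76% of 100 genes set to 2-fold and 92% of 100 set to 4-fold. Of its calls at an adjusted p under 0.05, 10.2% were false. Only these genes were changed in the simulation, whereas 27.5% of all genes were called in the data. The false share of the real calls can therefore differ.

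The 10 genes and all lists were chosen with earlier results of these data known. Named genes were the 10, Bche, and of each other list up to 4 called members by smallest p, or the 2 of lowest p in a list with no call. Members that spell out a small count fall outside this rule. A result for 1 gene is not reported here. Intervals take no account of PCR duplicates. Gene positions and promoter windows are those of RefSeq on GRCm38.p6.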

Additional observations from a re-analysis of the deposited data

How the results depend on the processing

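Scaling by library totals called 1028 genes higher and 3429 lower over all genes, limma on log2(FPKM + 1) 917 and 3202, on log2(FPKM + 0.1) 948 and 3227, and on log2(FPKM + 1) with no filter 537 and 2268, against 1975 and 2062 in the edgeR fit. Under these 4 settings the share of calls that were higher was 23.1%, 22.3%, 22.7% and 19.1%, against 48.9%. Leaving out 1 library gave 1208 to 2440 higher and 1305 to 2348 lower. Leaving out 1 library gave 2 to 2 higher and 2 to 5 lower for other beta-catenin targets, 4 to 6 higher and 7 to 14 lower for other pericentral genes, 7 to 11 higher and 1 to 6 lower for periportal genes, 1 to 3 higher and 1 to 2 lower for Wnt ligands. For the rest it gave 0 to 3 higher and 0 to 0 lower for receptors, 2 to 3 higher and 2 to 4 lower for intracellular genes, 2 to 4 higher and 3 to 8 lower for glutamine and ornithine genes. Scaling by library totals gave 5 periportal genes lower, 1 Wnt ligand higher, and 0 receptors higher and 2 lower. Each of the 3 limma fits gave 7 periportal genes higher, 1 Wnt ligand higher, 0 receptors higher and 1 lower, and 0 intracellular genes higher. The limma fits with the filter gave 6 periportal genes lower, and the one without it 1 other beta-catenin target higher. Log2 fold changes with 1 library left out were -0.87 to -0.132 for Glul, -0.65 to -0.25 for Oat, -2.85 to -1.83 for Slc1a2, -2.45 to -1.69 for Rgn, -0.68 to -0.54 for Axin2, -0.91 to -0.49 for Rnf43. The call was gained for Oat with scaling by library totals (-0.61) and limma on log2(FPKM + 0.1) (-0.62), and for Cyp2e1 with scaling by library totals (-0.49). It was lost without the filter for Slc1a2 (-2.58) and Rgn (-2.02), and for Rnf43 with relative log expression scaling (-0.63) and unfiltered limma (-0.60). The cause was not tested. Lect2, Lgr5 and Tbx3 kept their direction and call in all 14 alternatives. The number of the 10 called lower spanned 4 to 9, and 0 were higher in each.

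Deviations from the group means correlated little between same-numbered PBS and DOX samples (r = 0.0861, -0.0731 and -0.134). Differently numbered samples gave -0.132 to 0.192. With 3 libraries per group, this check cannot exclude that the numbers mark pairs. With the replicate number as a block, 1633 genes were higher and 1849 lower, 4 periportal genes were lower, and of the 10 genes 6 were lower: Oat gained its call (-0.46), and Slc1a2 (-2.38) and Rnf43 (-0.66) lost it.

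The sign turned for Znrf3 with scaling by library totals (-0.116), the limma fits (-0.0763, -0.124 and -0.0763), and without PBS 1 (-0.00493) or DOX 3 (-0.106). It turned for Notum without PBS 1 (0.00602) and for Dkk3 without DOX 2 (0.0412), none of them past the test. With 1 library left out the log2 fold change reached 0.174 at most for Znrf3, -0.20 at least for Notum and -0.156 at least for Dkk3. Within single libraries, 5 of the 10 genes held their PBS rank in PBS 3 and DOX 1, 6 in DOX 2 and DOX 3, and 8 in PBS 1 and PBS 2. With the letters CTTTGATC, 1 gene had a promoter match in place of 3. Depth limited Lgr5, with 2 to 75 counts per library, among the genes of low count.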
